A study of Rattus norvegicus with 23 samples.

Results

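The genes described here are those whose level differed in the same direction between sepiapterin and control aggregates at 12 and at 24 hours. They numbered 104 of 32494 genes in the deposited tables, 81 higher with sepiapterin and 23 lower. Genes were chosen by their level in CPM, the reads of a gene scaled to a library's total reads in genes: each needed a mean of at least 2 CPM over 12 libraries, 3 treated libraries all above or all below 3 controls at both times, and a ratio of group means of at least 1.15 at both times. Of the genes with that mean level, 11917 could have met the limits after 2 identifiers, ENSRNOG00000013009 and ENSRNOG00000005600, had been left out as the choice prescribes. The 12 and 24 hour values therefore made the list, and are given as a description with no test. The libraries at 6 hours and at 0 hours took no part in it.

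Brain cells of rat embryos (Sprague Dawley, embryonic day 15) had been grown as 3D aggregates with agitation for 14 days, with no genotype given in the labels. They received 120 ng/ml sepiapterin and were sampled at 6, 12 or 24 hours (T6, T12, T24), or served as controls with PBS at those times or at 0 hours (T0). There were 3 libraries in each of these 7 groups and 2 further libraries from T12 control samples 10 and 11. Whether the 3 libraries of a group stem from separate cultures is not in the labels, and a p-value here reflects only their spread, which may be technical.

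Sepiapterin enters cells and is reduced through the pterin salvage pathway to tetrahydrobiopterin. That cofactor is needed by phenylalanine, tyrosine and tryptophan hydroxylase, which start the breakdown of phenylalanine and the synthesis of dopamine, noradrenaline and serotonin, and by the nitric oxide synthases. Aggregating cultures of fetal brain hold neurons, astrocytes and oligodendrocytes that go on differentiating in vitro. The deposited tables name genes by Ensembl identifier alone, and 0 of 32494 identifiers could be paired with a symbol, so the role of each gene and the markers of these cell types could not be given. Folds are taken between libraries for 1 gene at a time. CPM values do not correct for gene length, so scarce or abundant here means few or many reads. In bulk RNA, fewer cells of a type and less RNA per cell cannot be told apart.

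Depth ran from 16991417 to 26588314 reads in genes per library. At T12 the sepiapterin libraries were all deeper (23783206 to 24637779 reads) than the controls (19616350 to 21901345), while at T24 the groups overlapped in depth. Control samples 10 and 11 each have a pair of libraries for which the sample title and the column header disagree: the libraries titled 10 and 11 are headed 10b and 11b, and the reverse. The choice of genes used the libraries headed 10, 11 and 12. The labels place T6 and T12 in the first of 2 preparation batches and T24 with 2 repeated T12 controls in the second. If the headers are right, the T12 comparison lay within the first batch. If the titles are right, 2 of its 3 controls came from the second, and for those libraries batch and treatment cannot be told apart. T0 control 142 stood apart from the other T0 controls, as its values below show.

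Most of the 104 differences were small. Among the 81 higher genes the median fold was 1.21 at 12 hours (range 1.15 to 1.62) and 1.28 at 24 hours (1.15 to 1.80). Among the 23 lower genes it was 1.21 at 12 hours (1.16 to 2.85) and 1.22 at 24 hours (1.15 to 1.67). A fold of 1.5 or more was reached by 2 genes at 12 hours and by 14 at 24 hours. The fold was larger at 24 than at 12 hours for 54 of the 81 higher genes and for 12 of the 23 lower ones. The plot of ratios at both times shows most genes close to the limit, with a single lower gene far out at 12 hours.

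**Figure D1:**
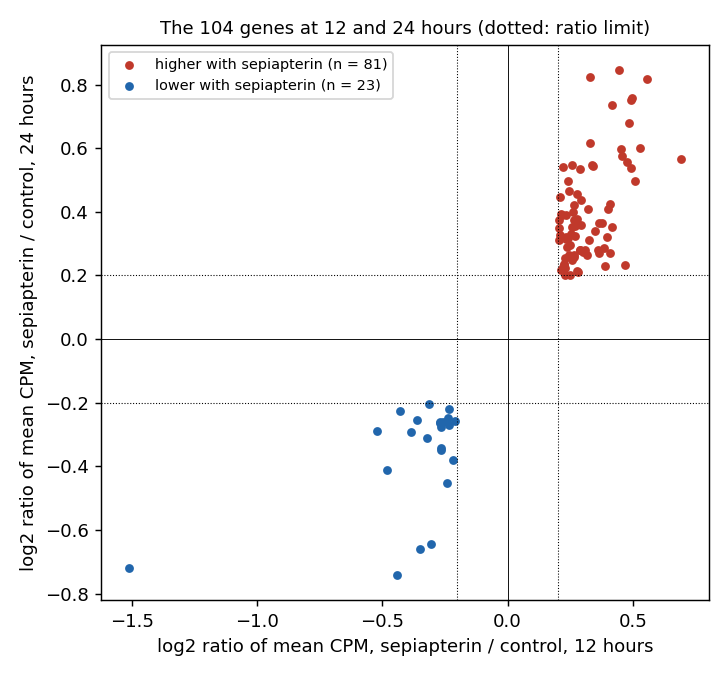
Log2 ratio of mean CPM between sepiapterin and control aggregates at 12 hours (horizontal axis) and 24 hours (vertical axis) for the 104 genes, 1 point per gene, with dotted lines at the ratio limit of 1.15. Points crowd near the limit, and the lower gene farthest left is ENSRNOG00000012404, with a 2.85-fold difference at 12 hours.

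ENSRNOG00000012404 had the largest smaller-of-both fold among the lower genes. At 12 hours it stood at 0.93, 1.01 and 0.83 CPM with sepiapterin and at 2.87, 2.52 and 2.51 CPM in the controls, a 2.85-fold difference. At 24 hours it stood at 1.80, 2.53 and 2.32 CPM against 3.73, 4.46 and 2.77 CPM, a 1.65-fold difference. That the groups did not overlap at either time follows from the choice. Its treated levels at 12 hours rest on 20 to 25 reads per library. The next lower gene, ENSRNOG00000024230, stood at 1.68, 1.95 and 1.86 CPM against 2.72, 2.32 and 2.42 CPM at 12 hours, 1.36-fold lower. At 24 hours its treated libraries held 1.80, 1.59 and 1.39 CPM and its controls 2.05, 3.58 and 2.37 CPM. Its groups were separate at both times, as the choice required, and at 24 hours 1 control was well above the other 2.

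ENSRNOG00000011913 led the higher genes. It stood at 4.25, 4.14 and 5.39 CPM with sepiapterin and 2.87, 3.46 and 2.19 CPM in controls at 12 hours, a 1.62-fold difference. At 24 hours the values were 3.83, 3.65 and 4.49 CPM against 2.58, 2.97 and 2.54 CPM, a 1.48-fold difference. The treated libraries lay above the controls at both times, as the choice required, and treated library 107 at 12 hours was the highest. With the controls titled 10, 11 and 12, which held 3.45, 4.28 and 2.19 CPM, the groups overlapped at 12 hours and the fold was 1.39. ENSRNOG00000030210, the second, stood at 2.73, 2.48 and 3.73 CPM against 2.18, 2.03 and 1.87 CPM at 12 hours. At 24 hours it stood at 3.72, 2.24 and 3.46 CPM against 2.16, 1.43 and 1.75 CPM, a 1.76-fold difference. Its treated library 115 was only just above the highest control at 24 hours.

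These 4 genes, 2 from each direction, were all scarce. The median level was 11.2 CPM for the higher genes and 39.1 CPM for the lower ones, against 35.9 CPM for all 11917 genes. Below 10 CPM lay 38 of the higher and 8 of the lower genes, and at 100 CPM or above 3 and 6. Without the ratio limit, treated and control libraries were separate in the same direction at both times for 233 higher and 313 lower genes. The limit kept 81 and 23 of these, so that lower genes outnumbered higher ones before it was applied and not after. The smallest ratios kept were 1.1508 (higher) and 1.1509 (lower), and the nearest ones left out were 1.149 and 1.1491.

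Abundant genes of the list were looked at after their values were seen. ENSRNOG00000013552, the most abundant lower gene, gave tight values. At 12 hours it stood at 260, 261 and 254 CPM with sepiapterin and 381, 340 and 363 CPM in controls, 1.40-fold lower. At 24 hours it stood at 403, 390 and 410 CPM against 560, 499 and 541 CPM, 1.33-fold lower. In both arms its level at 24 hours was above that at 12 hours. For the treated arm this cannot be told apart from the preparation batch, which differed between T12 and T24. The controls titled 10 and 11 held 414 and 359 CPM at 12 hours, also below the T24 controls. That the arms differed at both times follows from the choice. ENSRNOG00000029971, the most abundant higher gene, stood at 1242, 1133 and 1256 CPM against 983, 1079 and 1081 CPM at 12 hours. At 24 hours it stood at 1426, 1242 and 1046 CPM against 1005, 873 and 846 CPM, with treated library 117 close to the highest control. The controls titled 10, 11 and 12 held 1037, 1171 and 1081 CPM and overlapped the treated libraries at 12 hours.

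**Figure D2:**
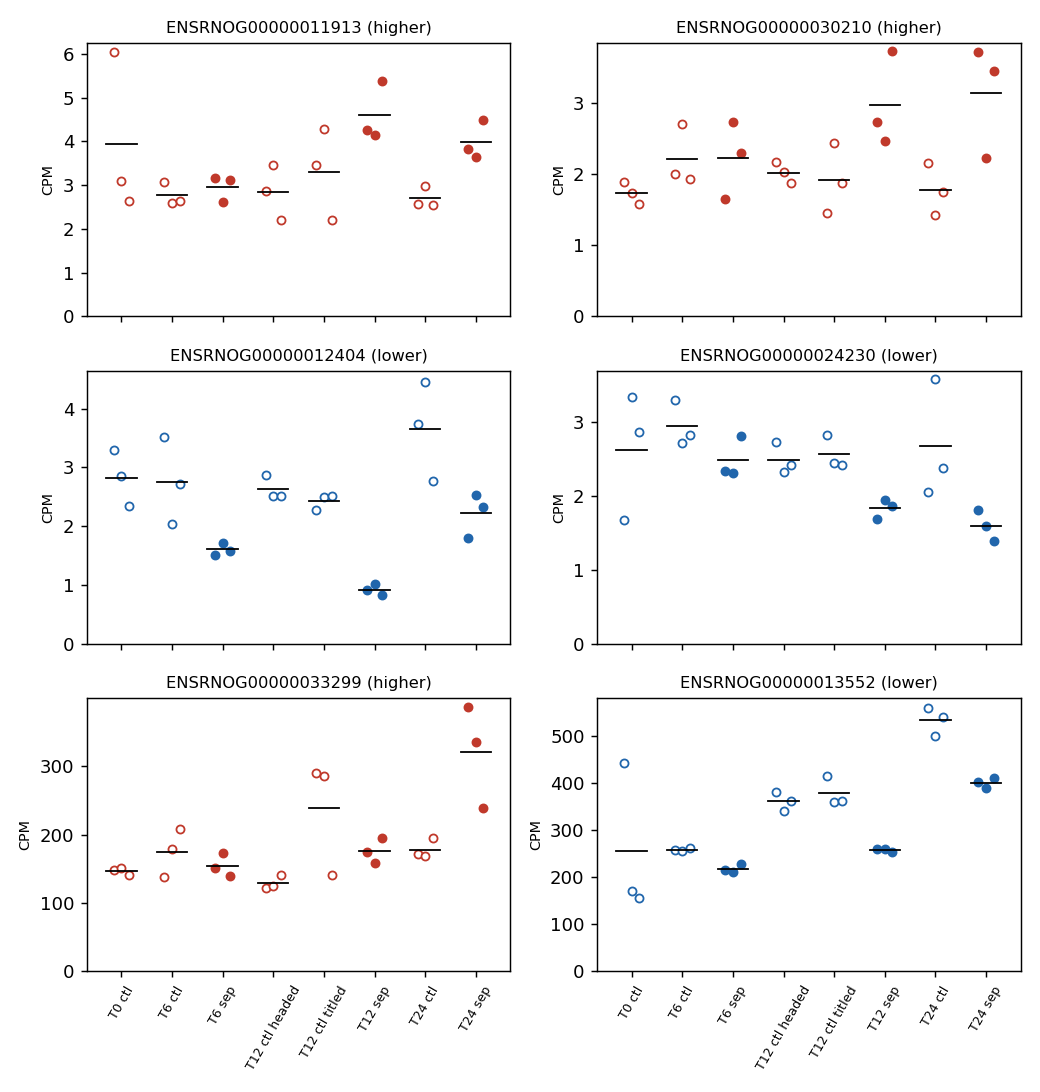
Level in CPM of 6 genes in each library (points) with group means (bars), for controls (open) and sepiapterin (filled) at T0, T6, T12 and T24, with T12 controls shown both by column header and by title. ENSRNOG00000013552 is lower with sepiapterin at T6, T12 and T24, whereas ENSRNOG00000033299 has T12 controls near 125 CPM by header and, for samples 10 and 11, near 290 CPM by title.

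The limits were met at 12 hours by 508 higher genes (4.26% of 11917) and 312 lower genes (2.62%), and at 24 hours by 755 higher (6.34%) and 464 lower genes (3.89%). These contrasts share no library. Of the 508 genes higher at 12 hours, 81 (15.9%) were also higher at 24 hours and 9 (1.77%) were lower. Those 81 were 10.7% of the 755 genes higher at 24 hours. Of the 312 genes lower at 12 hours, 23 (7.37%) were also lower at 24 hours, 4.96% of the 464 there, and 17 (5.45%) were higher. With the arms swapped at 1 time the same limits were thus met by 26 genes, against 104 with the arms as labelled. Alike to opposite genes stood at 81 to 9 for those higher at 12 hours and at 23 to 17 for those lower. These ratios cannot be compared directly, as the 24 hour lists differ in size, with 6.34% of all genes higher and 3.89% lower. Of the genes higher at 12 hours, 15.9% were alike, beside 6.34%, and 1.77% opposite, beside 3.89%. Of those lower, 7.37% were alike, beside 3.89%, and 5.45% opposite, beside 6.34%. No test was made of these counts and shares, as the 12 and 24 hour values behind them also made the choice.

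The count of 104 changed when single libraries were left out. A group with fewer libraries is easier to separate, so a larger count is not by itself a trait of the library left out. The count ranged from 81 without treated library 107 at 12 hours to 172 without the T12 control headed 11. Only 68 of the 104 genes stayed on the list without library 107, against 88 to 101 without any other single library. The count was 163 and 164 without treated libraries 105 and 106. The count of opposite genes moved more. Without treated library 117 at 24 hours it was 99, close to the 115 alike genes in that setting. It was 49 without treated library 106, 45 without T24 control 20 and 40 without the T12 control headed 12.

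The other libraries of control samples 10 and 11 were then put in place of those headed 10 and 11. Treated libraries stayed wholly above the controls for 52 of the 81 higher genes, and wholly below for 20 of the 23 lower ones. Over all 11917 genes they lay wholly above those controls for 11.6% and wholly below for 11.8%. Nothing is read from these shares for the chosen genes, as the 3 treated libraries and 1 control also made the choice. The remaining 32 genes overlapped. The median 12 hour fold was 1.20 with these libraries for the higher genes and 1.20 for the lower ones. Applied with them, the full limits gave 155 genes, 116 higher and 39 lower, of which 64 were among the 104.

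For 1 gene the library decided the direction. ENSRNOG00000033299, the second most abundant higher gene and described after its values were seen, stood at 174, 158 and 195 CPM with sepiapterin at 12 hours. The controls headed 10, 11 and 12 held 122, 125 and 141 CPM, but the other libraries of samples 10 and 11 held 290 and 285 CPM. The ratio of means was 1.36 with the former and 0.737 with the latter. At 24 hours it stood at 386, 335 and 239 CPM against 171, 168 and 195 CPM. The pair of libraries from 1 sample thus differed by more than the arms did at 12 hours. Across the higher genes the log2 difference between the paired libraries, headed b against not, had a median of 0.00 in sample 10 and 0.05 in sample 11, and across the lower genes -0.02 and -0.03. Over all genes it was -0.01 in both samples. As the libraries headed 10 and 11 made the choice and those headed b did not, nothing is read from these medians for the chosen genes.

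**Figure D3:**
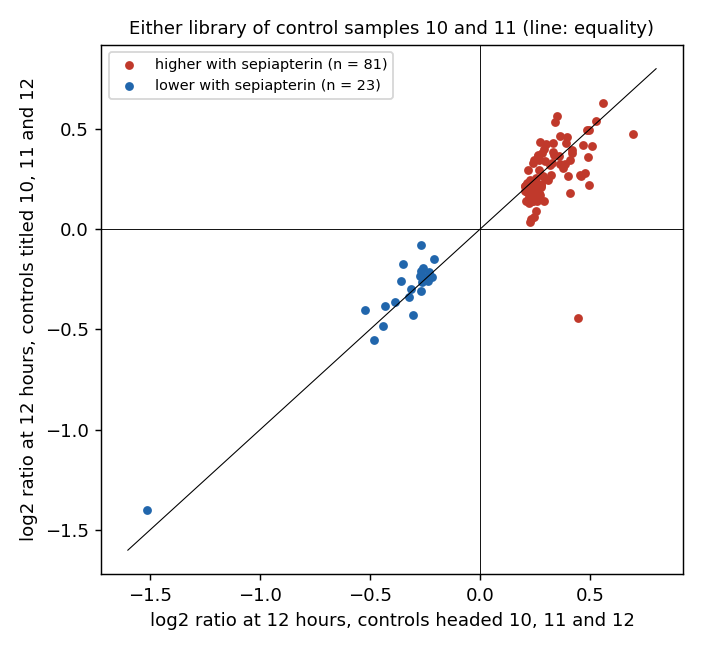
Log2 ratio at 12 hours of each of the 104 genes with the T12 controls headed 10, 11 and 12 (horizontal axis) and with those titled 10, 11 and 12 (vertical axis), with the line of equality. Only ENSRNOG00000033299, at a ratio of 1.36 on one axis and 0.737 on the other, changes direction.

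At 6 hours, in libraries that the choice had not used, the genes lay on average slightly towards the side they took later, but none passed the test. All 104 passed the filter on low counts. With edgeR's quasi-likelihood test over 14035 genes, 0% of all genes were called in either direction at an adjusted p below 0.05, and 0 of the 104. At an unadjusted p below 0.05 there were 301 genes. DESeq2 called 0 as well, as did limma's voom with library quality weights. The median log2 fold change at 6 hours was 0.05 for the 81 higher genes, of which 50 (61.7%) had a positive value. For the 23 lower genes it was -0.07, and 19 (82.6%) had a negative value. Over all genes tested the median was 0.00 and 49.9% were positive. The median of the higher genes was 0.016 without treated library 98, 0.032 without control 3a and 0.084 without control 2a. That of the lower genes was -0.020 without treated library 98 and -0.113 without treated library 96.

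**Figure D4:**
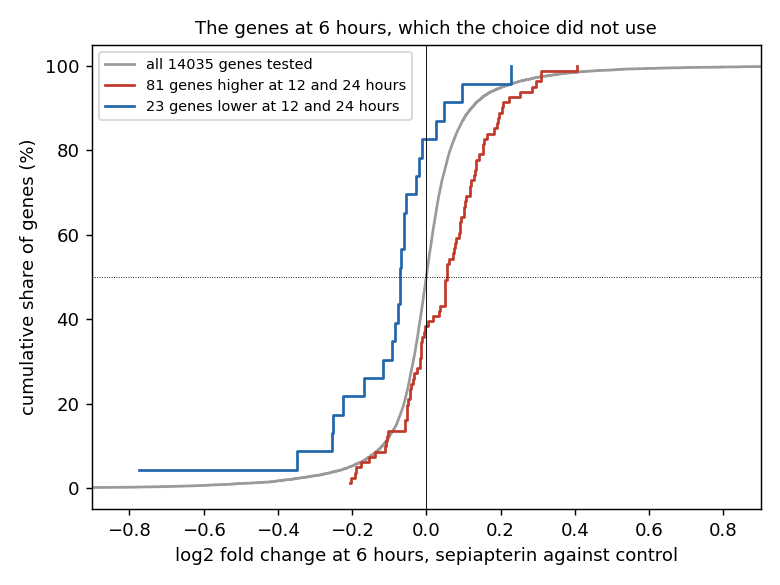
Cumulative share of genes by log2 fold change at 6 hours, for all 14035 genes tested, the 81 higher and the 23 lower genes (horizontal axis cropped at 0.9 to either side). The curve of the higher genes lies to the right of all genes, with its middle at 0.05, and that of the lower genes to the left, at -0.07.

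Treated libraries at 6 hours lay wholly above the controls for 9 of the 81 higher genes (11.1%), against 7.65% of all 11917 genes, and wholly below for 0. For the lower genes they lay wholly below for 5 of 23 (21.7%), against 3.89% of all genes, and wholly above for 0. Scaling by the trimmed mean of M-values (TMM) moved the background to 5.61% above and 5.30% below. With it the counts were 8 of 81 (9.88%) and 5 of 23 (21.7%). Before that scaling the share of the higher genes was near the background. The shares rest on 9 or 8 higher genes and 5 lower genes, and were not tested. At an unadjusted edgeR p below 0.05, 4 of the 81 higher genes lay on the higher side (4.94%, against 1.22% of all genes). On the lower side lay 3 of the 23 lower genes (13.0%, against 0.926% of all genes).

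These 7 are named because of their count, after their values were seen. Of the lower genes, ENSRNOG00000012404 stood at 1.52, 1.72 and 1.58 CPM with sepiapterin at 6 hours against 3.51, 2.03 and 2.72 CPM. Its log2 fold change was -0.77 ± 0.21 (SE) with an edgeR adjusted p of 1.00, ranging from 0.33 to 1.0 over the alternatives. ENSRNOG00000038297 stood at 11.1, 9.54 and 10.3 CPM against 12.6, 13.1 and 13.5 CPM, with no overlap. ENSRNOG00000036664 stood at 137, 122 and 122 CPM against 139, 133 and 139 CPM, where 1 treated library fell among the controls.

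Of the higher genes, ENSRNOG00000005854 stood at 17.2, 16.5 and 16.3 CPM against 14.2, 14.1 and 14.3 CPM at 6 hours, the tightest of the 4. ENSRNOG00000010588 stood at 18.7, 17.4 and 19.4 CPM against 16.2, 15.5 and 15.9 CPM, also without overlap. The other two were scarce. ENSRNOG00000027456 held 3.21, 4.66 and 4.80 CPM against 3.34, 3.23 and 2.91 CPM, which overlapped. ENSRNOG00000004221 held 3.03, 3.32 and 2.80 CPM against 2.40, 2.82 and 2.08 CPM, which overlapped too.

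A fit of the 6 libraries at T6 alone called 1 of 13657 genes (0.00732%, lower), and it was on the list: ENSRNOG00000013552. It stood at 215, 211 and 228 CPM with sepiapterin against 257, 256 and 262 CPM in controls at 6 hours, and the groups did not overlap. Its log2 fold change was -0.25 ± 0.036 (SE), with an edgeR adjusted p of 0.00456 in that fit. In the fit of all 7 groups the same difference had an SE of 0.27 and an adjusted p of 1.00. Its T0 controls stood at 443, 170 and 156 CPM, and that group, like those at T12 and T24, enters the estimate of spread only in the larger fit. Whether the T0 group accounts for the larger SE was not tested.

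The leading higher genes showed no such difference at 6 hours. ENSRNOG00000011913 stood at 3.16, 2.61 and 3.12 CPM against 3.07, 2.60 and 2.63 CPM. ENSRNOG00000030210 stood at 1.65, 2.73 and 2.31 CPM against 2.00, 2.71 and 1.94 CPM. Both overlapped, and the sign of the second changed between alternatives. ENSRNOG00000024230, a lower gene, stood at 2.34, 2.31 and 2.80 CPM against 3.29, 2.71 and 2.82 CPM, and overlapped as well.

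Genes that had met the limits at only 1 of the later times served for comparison. The 418 genes higher at 12 hours only had a median log2 fold change of 0.00 at 6 hours, and the 657 higher at 24 hours only had 0.01, below the 0.05 of the 81. For lower genes the medians were -0.05 for the 272 of 12 hours only and -0.01 for the 432 of 24 hours only, against -0.07 for the 23. A negative value at 6 hours was held by 69.5% of those 272 and 53.5% of those 432, against 82.6% of the 23. For the higher genes a positive value was held by 50% of the 418 and 52.4% of the 657, against 61.7% of the 81. These medians and shares were not tested against each other.

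The mean log2 level of each group of genes, relative to the T6 controls, shows how the libraries compare. For the 81 higher genes it was -0.036 to 0.038 in T6 controls and -0.004, 0.063 and 0.119 in treated libraries 96, 97 and 98, with an overlap. It was 0.183 to 0.334 with sepiapterin at T12 and 0.162 to 0.294 at T24. Controls headed 10, 11 and 12 lay at -0.091 to -0.030, and the libraries titled 10 and 11 at -0.034 and 0.047. T24 controls lay at -0.168 to -0.111. For the 23 lower genes, treated libraries at T6 lay at -0.169 to -0.028 and controls at -0.071 to 0.037, which overlapped. T24 controls lay at 0.140 to 0.227. The positions of the libraries at 12 and 24 hours, controls included, follow from the choice, and nothing is read from them.

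**Figure D5:**
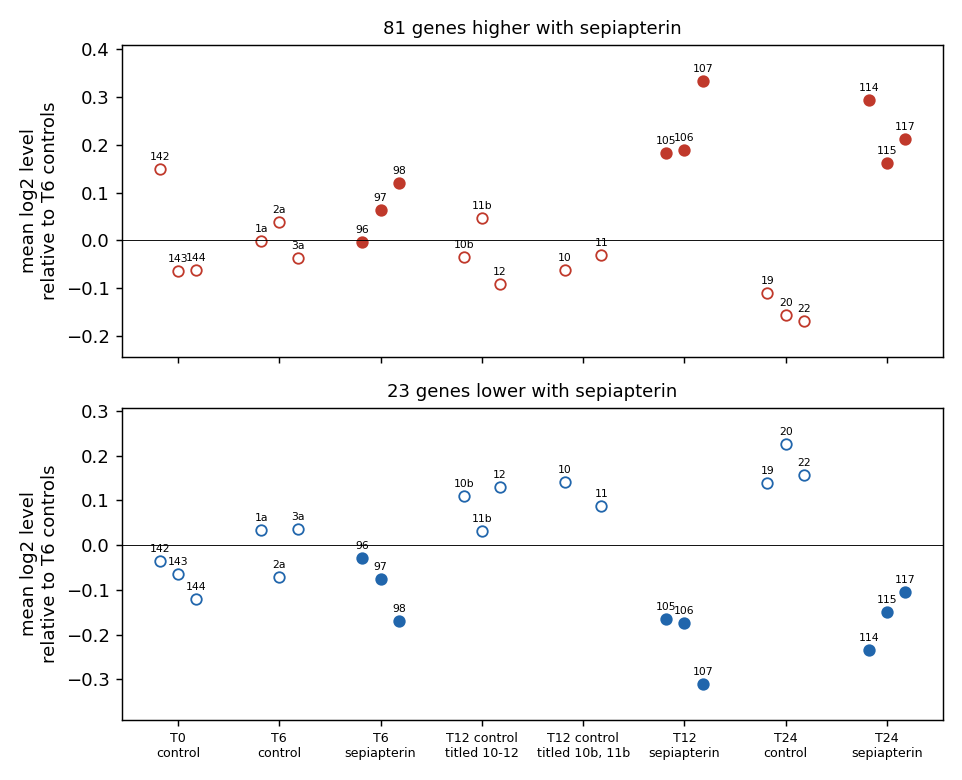
Mean log2(CPM + 0.5) of the 81 higher genes (top) and the 23 lower genes (bottom) in each library, relative to the mean of the T6 controls, for controls (open) and sepiapterin (filled), with points labelled by column header. Treated libraries at T6 overlap the T6 controls, and T0 control 142 lies at 0.149 for the higher genes while the other T0 controls lie at -0.064 and -0.062.

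Change over time without sepiapterin was followed from 0 to 6 hours in controls, which the choice had not used. This comparison shares the T6 controls with the sepiapterin comparison at 6 hours, and the labels do not give the batch of the T0 libraries. By edgeR, 10.9% of 14035 genes rose and 10.7% fell at an adjusted p below 0.05. Together these were 21.6% of the genes. Of the 81 higher genes 7 rose (8.64%) and 13 fell (16.0%). Of the 23 lower genes 4 rose (17.4%) and 2 fell (8.70%). These counts depended on single libraries. Without T0 control 142 (3200 genes called over all, against 3035), 17 of the 81 rose and 10 fell, and 5 of the 23 rose and 4 fell. Without T0 control 143 (2350 genes) they were 3 and 12, and 3 and 0. Without T6 control 1a, 2a or 3a, fewer genes were called over all as well (2074, 2030 or 2151). Of the 81, 6, 7 or 8 then fell, beside 5, 5 or 7 that rose, and 0, 0 or 1 of the 23 fell. They depended on the method too: voom, which called 4661 genes against 3035, had 16 of the 81 that rose and 16 that fell, and library size as the only scaling (3067 genes) had 8 and 8. Of the 23, voom had 5 that rose and 6 that fell, and library size alone 4 and 0. Fitting the pair of groups alone (1644 genes) gave 4 and 7 of the 81, and 3 and 0 of the 23. The larger count of falling than of rising genes among the 81 was thus not kept under every alternative.

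ENSRNOG00000012702, a lower gene, rose in controls from 50.8, 55.2 and 63.6 CPM at T0 to 85.8, 86.2 and 85.3 CPM at T6. Its log2 fold change was 0.57 ± 0.06 (SE) with an edgeR adjusted p of 8.44e-07. ENSRNOG00000028992, a higher gene, rose from 3.29, 3.67 and 3.44 CPM to 8.94, 9.59 and 8.59 CPM, by 1.35 ± 0.16 on the log2 scale. None of the values at T0 reached those at T6 in either gene. ENSRNOG00000008015, a higher gene, fell from 10.1, 18.1 and 15.7 CPM to 4.40, 4.89 and 3.69 CPM in controls, by 1.78 ± 0.18 on the log2 scale. With sepiapterin it stood at 6.73, 4.51 and 4.85 CPM at 12 hours. The controls headed 10, 11 and 12 held 4.20, 4.10 and 4.47 CPM. At 24 hours it stood at 7.49, 5.77 and 5.78 CPM against 3.79, 3.14 and 3.84 CPM. That the arms differed at 12 and 24 hours follows from the choice. All these values lay below its T0 controls, whose batch is not in the labels, and nothing is read from this. ENSRNOG00000005854, another higher gene, fell from 20.5, 17.5 and 18.5 CPM to 14.2, 14.1 and 14.3 CPM, with an edgeR adjusted p of 0.00019. Each of the 4 kept its call in all 12 alternatives run.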

How the data were processed

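The authors deposited raw read counts per Ensembl gene, 1 table per library, made with cutadapt 1.8, STAR 2.5.2b and HTSeq 0.6.1 on Rnor_6.0; the tools and build come from the submitters' processing notes. No source used here gives the annotation release or the strand setting, so genes that overlap or nearly match another are uncertain. The 5 summary lines were left out. Reads outside genes made up 14.8 to 17.1% of those tallied, and the line for alignments that were not unique 23.5 to 25.0%. CPM was computed on reads in genes. The members and lists were chosen with earlier results of these data known. Symbol lists were fixed, but the reference table (GRCr8, 47357 genes) holds no Ensembl identifiers, so none was tested.

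Tests used edgeR 4.0.16 (R 4.3.3): quasi-likelihood with robust spread, TMM, filterByExpr (minimum count 10), 21 libraries in 7 groups by title, 14 residual degrees of freedom. Adjusted p-values are Benjamini-Hochberg over 14035 genes. DESeq2 1.42.0 and limma 3.58.1 served as alternatives. The programs were tested on simulated data. Genes were named by the smaller of their 2 folds, and from 0 to 6 hours by p-value, at most 2 per direction; others are stated to have been named after their values were seen. Precision is set by 3 libraries a group and by counting.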

Additional observations from a re-analysis of the deposited data

How the results depend on the processing

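The list grew to 233 genes with the looser ratio limit of 1.1 and shrank to 28 with the stricter limit of 1.25, and the opposite genes went to 75 and 5. Leaving out each of the 12 libraries, which makes separation easier to meet, gave 81 to 172 genes alike and 19 to 99 opposite. Among these settings, 163 and 164 genes were alike without treated libraries 105 and 106, and 49, 40 and 45 opposite without treated library 106, control 12 and control 20. TMM-scaled CPM gave 111 genes (89 higher, 22 lower), 100 of them shared, and minimum levels of 1 and 5 CPM gave 114 and 78.

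At 6 hours, 1 gene was called when the 6 libraries were fitted alone, and 0 in every other alternative. The log2 fold change of ENSRNOG00000030210 there, -0.01, became 0.028 with voom and ranged from -0.191 to 0.166 when each library was left out, with adjusted p-values of 0.99 to 1.0. From 0 to 6 hours 3035 genes were called, 1644 when the 2 groups were fitted alone and 4661 with voom. The cause of these shifts was not tested. TMM scaling of the 6 hour levels was added after seeing the data.

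No paired analysis was possible because the groups compared share no replicate numbers in the labels. Genes at 2 to 5 CPM rest on few reads per library, which limits their precision.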
